A study of Mus musculus with 148 samples.

Results

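The 5′ end of *Lct*, from exon 2 through intron 1 and exon 1 to the sequence between *Lct* and *Mcm6*, was followed at the CpGs read in enterocytes of the mouse small intestine. *Lct* encodes lactase, the brush-border enzyme that splits lactose in the gut. Members were all CG cytosines, on each strand, between chr1:128319059-128331589 (GRCm38) with more than 30 reads in at least 0.5 of the samples. Of 28 such cytosines listed in the files, 17 met this and lie in 11 CpG sites, 6 of which were read on both strands. Over the whole *Lct*-*Mcm6* locus, 666 of 1100 listed CG cytosines met the same rule.

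DNA modification is the share of bisulfite reads in which a cytosine stayed unconverted. It covers methylation and other cytosine marks that bisulfite does not convert. In the textbook account, CpGs at an active promoter tend to be unmodified while CpGs inside a transcribed gene tend to be modified. Lactase is made mainly by villus enterocytes of the middle small intestine. In mammals it is abundant while the young suckle and declines after weaning.

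All mice were C57BL/6, which the sample labels spell C57BL/6MCrl and the housing notes C57BL/6NCrl. The small intestine was cut into 9 segments numbered from the duodenum (1) to the distal ileum (9), and enterocytes were released from each by chelation. There were 71 samples of postnatal day 60 (P60) adults, with 8 per segment and 7 in segment 6. P6 infants gave 10 samples, 3 each from segments 1 and 3 and 4 from segment 7. P90 adults had been given milk in place of water for 60 days from P30, either milk with lactose (LAC+, 35 samples) or lactose-free milk (lac-, 32 samples). Segments 1, 3, 4, 7 and 8 of the P90 mice were read, with 7 LAC+ samples each and 6 or 7 lac- samples each. Sucrose was added to the LAC+ milk and not to the other, so lactose and sucrose cannot be told apart. The labels do not say which segments came from the same mouse. The p-values therefore measure the spread between samples, several of which may share an animal. The study describes fewer mice per P60 segment than the samples held here, so some samples of one segment may also be repeats of one mouse, and the P60 p-values would then be too small. No RNA is held in the files, so the labelled cell type was not checked against marker genes, and a change in the mix of cells cannot be told apart from a change within enterocytes.

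Reads summed over the locus ranged from 15202226 to 51271308 in P60 samples, from 33228535 to 43148275 in P6, from 19744566 to 97880107 in LAC+ and from 19771688 to 101021896 in lac- samples. Lane was crossed with segment in P60 but not with age or diet. All P6 samples were on lane 8, which held no other sample. Of the P90 files, 29 of 35 LAC+ and 12 of 32 lac- carried the mark "merged" in their names, while none of the P6 or P60 files did. One library stood apart, LAC+ segment 3 replicate 7, the only one on lane 2. Levels and diet differences of LAC+ segment 3 are given with and without it.

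*Lct* lies on the minus strand at chr1:128284756-128328318. Exon 1 (chr1:128327658-128328318) holds 6 of the CpG sites and 9 of the 17 members, and all 6 sites lie in coding sequence, since the start codon begins 15 bp into the exon. Intron 1 (chr1:128319139-128327657) spans 8519 bp with 61 CG dinucleotides, of which 2 sites were members. Exon 2 (chr1:128319059-128319138) holds 2 members, both read on the plus strand only. Between the genes there are 24 CG dinucleotides, and a single site was read, 5 bp upstream of the *Lct* start. The members thus sample 11 of the 93 CG dinucleotides of the region. The exon 1 sites are numbered 1 to 6 in the direction of transcription, with their plus-strand cytosines at 128328160, 128328059, 128327957, 128327865, 128327709 and 128327685. The intron 1 and exon 2 sites are named by the distance of that base from the annotated start at 128328318.

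The RefSeq promoter of *Lct* (GRCm38.p6, chr1:128328269-128328568, minus strand, 250 bases before to 50 after the start) is shown because it holds a single CpG, in capitals, which is the promoter member described here.
Lct promoter: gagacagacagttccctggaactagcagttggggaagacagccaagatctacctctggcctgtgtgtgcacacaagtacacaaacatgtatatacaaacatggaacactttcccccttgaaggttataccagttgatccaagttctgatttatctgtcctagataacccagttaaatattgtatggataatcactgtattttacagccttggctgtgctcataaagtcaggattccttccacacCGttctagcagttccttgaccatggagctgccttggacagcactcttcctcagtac

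Of 32851 RefSeq promoters of this length, 14.1% hold 1 CG or none, and the median is 7. On either strand, TTTAC (the core of a Cdx2-type site) occurred once, 51 bp upstream of the start, and 31.5% of the promoters hold it. The GATA-type motif AGATAA began 90 bp upstream on the gene strand and lay again, in reverse complement, 101 bp upstream, and 11.2% of the promoters hold it. The TATA-box motif TATAAA was not in this window, and 13.6% of the promoters hold it. Nor was the HNF1-type motif GTTAAT (7.10% of promoters) or a further GATA-type motif, TGATAA (9.05%). None of the matches overlaps another or the CpG.

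The sites that changed most along the intestine, and the exon 1 site that moved against the promoter CpG between samples, are shown with 20 bases on either side in the direction of transcription. The CpG is in capitals.
Exon 1 CpG 1, chr1:128328140-128328181: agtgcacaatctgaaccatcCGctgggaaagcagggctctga
Exon 1 CpG 2, chr1:128328039-128328080: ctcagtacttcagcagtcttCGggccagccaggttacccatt
Exon 1 CpG 3, chr1:128327937-128327978: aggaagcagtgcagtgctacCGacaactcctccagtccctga
Exon 1 CpG 4, chr1:128327845-128327886: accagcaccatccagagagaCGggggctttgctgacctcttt
Exon 1 CpG 6, chr1:128327665-128327706: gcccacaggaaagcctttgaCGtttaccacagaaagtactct
Intron 1 CpG at 5070 bp, chr1:128323228-128323269: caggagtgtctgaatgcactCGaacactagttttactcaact

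Capture used padlock probes, strands whose arms anneal to converted DNA on both sides of a stretch that is then copied. The arms of 15 probes were placed in the region by matching them to the converted reference. Each member lay in the copied stretch of exactly 1 probe and in no probe arm, and the strands of a site were copied by different probes. The plus strands of exon 1 CpGs 3 and 4 share a probe, as do their minus strands, the plus strands of CpGs 1 and 2, the minus strands of CpGs 5 and 6 and both exon 2 members. These pairs share reads and are not independent. Median depth per sample ran from 76 reads at 703 bp (plus strand) to 6198 reads at the promoter CpG (plus strand). Intervals are not given because reads of 1 capture are not independent molecules.

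Averaged over the 71 P60 samples, the promoter CpG was the least modified member, at 16.5% ± 6.3 (SD) on the plus strand and 14.7% ± 7.7 on the minus strand. The intron 1 site at 5070 bp stood at 39.3% ± 6.8 (plus strand) and 39.8% ± 11.5 (minus strand, 67 samples). The remaining members were mostly modified. They ran from 72.7% ± 2.8 at exon 1 CpG 6 to 93.7% ± 3.0 at 9247 bp in exon 2, the highest member. Within exon 1 the levels were not uniform, since CpG 2 (77.5% ± 11.1, plus strand) and CpG 6 lay below CpG 3 (93.0% ± 1.7, plus strand), CpG 4 (85.5% ± 1.9, plus strand) and CpG 5 (90.6% ± 1.7).

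**Figure D1:**
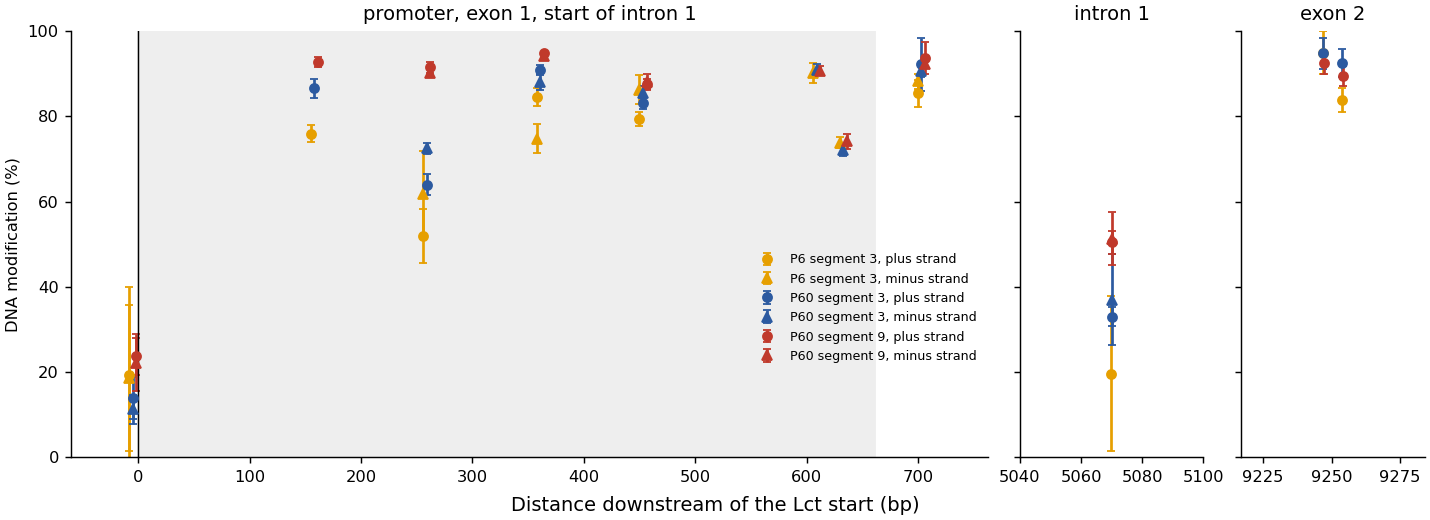
DNA modification (%) of each member against its distance downstream of the *Lct* start in bp, in 3 windows, with exon 1 in grey. Points are means and bars SD for P6 segment 3, P60 segment 3 and P60 segment 9, with circles for the plus and triangles for the minus strand, and groups with under 3 values are left out. The promoter CpG lies near 11% to 24%, the means of the 3 groups lie apart at exon 1 CpGs 1 to 3 and close together at CpGs 5 and 6.

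The first question is which of these CpGs vary along the adult intestine. Across the 9 P60 segments, 7 of 17 members differed at an adjusted p under 0.01, where 17.2% of the 651 tested CpGs of the locus did (quasi-binomial F test, Bonferroni over all tested cytosines). All 7 were higher in segment 9 than in segment 3, as were 102 of the 112 called CpGs of the locus. Of the 7 members, 6 lie at exon 1 CpGs 1 to 4. The seventh was the plus strand at 5070 bp in intron 1. The promoter CpG, exon 1 CpGs 5 and 6, the intron 1 site at 703 bp and the exon 2 sites did not pass.

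Exon 1 CpG 2 changed most. On the plus strand the 8 samples of segment 3 ran from 61.2% to 67.4% with a median of 63.4%, and the 8 of segment 9 ran from 89.9% to 93.4% with a median of 91.2%. The groups did not overlap. The mean rose from 64% ± 2.5 to 91.5% ± 1.2 (SD, n = 8 each, adjusted p over the 9 segments 2.2e-20, exact two-sided permutation p = 0.000155, the smallest that 8 against 8 allows).

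On the minus strand at exon 1 CpG 2, segment 3 ran from 70.5% to 74.9% (median 72.6%) and segment 9 from 88.9% to 91.9% (median 90.1%). Again no sample of one segment reached the other. The mean rose from 72.5% ± 1.4 to 90.3% ± 0.9 (SD, n = 8 each, adjusted p = 4.3e-22 by the same fit, exact permutation p = 0.000155).

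The difference between segments 3 and 9 was close to the same on each lane, which was crossed with segment. On lanes 5, 6 and 7 it was 27.2, 27.1 and 28.1 points on the plus strand and 16.7, 18 and 18.6 points on the minus strand. The order of the 9 segments by mean level was 3, 2, 4, 5, 1, 6, 7, 8, 9 on both strands. The lowest levels were thus in segments 2 and 3, and segment 1, the most proximal, ranked between segments 5 and 6.

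That rise toward the proximal end was tested between segments 1 and 3. The minus strand of exon 1 CpG 2 fell from 82.3% ± 2.4 in segment 1 to 72.5% ± 1.4 in segment 3 (SD, n = 8 each, adjusted p = 0.0017 by the quasi-binomial F test). This was the 1 of 17 members called, and also the only CpG called among the 0.151% of the locus. The call was lost with lane as a covariate (adjusted p = 0.014), with limma (0.33) and with either replicate block (0.95 and 0.96), all with the same difference of means. The segment 1 samples ran from 79% to 86.5%, all above the highest of segment 3 at 74.9% (exact permutation p = 0.000155). The plus strand had 75.3% ± 4.7 and 64% ± 2.5 (SD, n = 8 each) and did not pass (adjusted p = 0.54), though its groups did not overlap either (exact permutation p = 0.000155).

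In intron 1, at 5070 bp on the plus strand, segment 3 ran from 29.9% to 35.6% (median 33.5%) and segment 9 from 45.5% to 54% (median 51.3%). The groups did not overlap. The mean rose from 33% ± 2.3 to 50.4% ± 2.7 (SD, n = 8 each, adjusted p = 1.2e-16 over the 9 segments), and the differences on lanes 5, 6 and 7 were 16, 16.7 and 18.8 points. The order of the segments was 2, 3, 4, 5, 6, 1, 7, 8, 9. The minus strand, read far less deeply (median 114 reads), had 36.9% ± 10.7 in segment 3 and 51.3% ± 6.2 in segment 9 and did not pass over the 9 segments (adjusted p = 0.42).

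The other called exon 1 members differed by less. Exon 1 CpG 1 (plus strand) rose from 86.6% to 92.7% between segments 3 and 9 (adjusted p over the 9 segments 1.7e-10). CpG 3 of exon 1 rose from 90.9% to 94.8% on the plus strand (7.3e-12) and from 88.0% to 94.2% on the minus strand (6.0e-05). CpG 4 rose on the plus strand from 83% to 87.5% (8.4e-08). Segment 3 was the lowest segment at each of these 4 members, and segment 8 the highest.

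Adjacent steps of the order were small. Among 56 pairs of segments that neighbour each other in the order of a called member, the lowest exact permutation p was 0.024, without correction, between segments 2 and 4 at exon 1 CpG 1. With Benjamini-Hochberg correction over the 56 pairs that p was 0.23. The pairs were set by sorting the means of these same samples, which keeps each step small. The test therefore cannot show whether segments next to each other along the intestine differ.

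**Figure D2:**
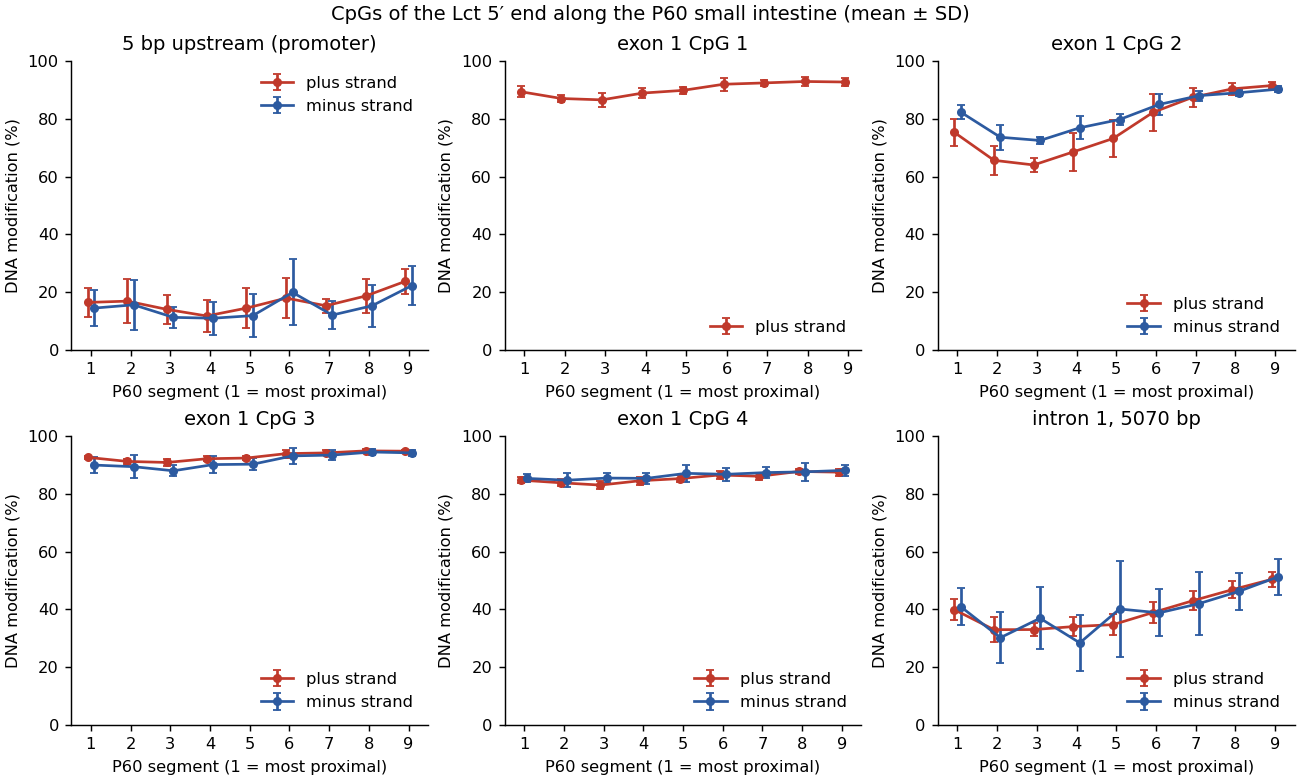
DNA modification (%) at 6 CpG sites against P60 segment, from 1 (most proximal) to 9, as mean ± SD over 8 samples (7 in segment 6), with the plus strand in red and the minus strand in blue. Exon 1 CpG 2 and the intron 1 site dip in segments 2 and 3 and rise to segment 9, from 64% to 91.5% and from 33% to 50.4% on the plus strand, while the promoter CpG stays below 25% on average in all segments.

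With segments 3 and 9 alone, 5 of 17 members were called, where 6.94% of 663 CpGs were. These were both strands at exon 1 CpG 2, both strands at exon 1 CpG 3 and the plus strand at 5070 bp. Exon 1 CpG 1 (adjusted p = 0.011) and the plus strand of CpG 4 (0.072) missed the threshold in this smaller fit. The calls at exon 1 CpG 3 were lost with limma and with either replicate block.

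The promoter CpG was next compared between segments 3 and 9. In P60 segment 3 its plus strand ran from 9.4% to 24.6% (median 12.2%) and in segment 9 from 19.8% to 31% (median 21.7%), so the groups overlapped. The means were 13.9% ± 4.9 and 23.7% ± 4.4 (SD, n = 8 each, exact permutation p = 0.0012), and the minus strand gave 11.2% ± 3.5 and 22.2% ± 6.7 (p = 0.0011). Over the 9 segments it did not pass (adjusted p = 1). Its dispersion is the factor by which samples of a segment varied beyond binomial counting. It was 138 on the plus strand against a median of 4.5 over the members. Counting error shrinks with depth, and this strand was the deepest member (median 6198 reads), so these factors do not compare spread between members. In percentage points, the median SD within a P60 segment was 5.63 on this strand and 6.72 on the minus strand. At exon 1 CpG 2 the same median was 4.68 on the plus strand and 2.04 on the minus strand. At 5070 bp it was 3.35 on the plus strand and 8.89 on the minus strand.

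The spread of the promoter CpG was shared by its strands. Over the 71 P60 samples the deviations of the plus and minus strand from their segment means were correlated (Pearson r = 0.78, Spearman rho = 0.76, permutation p = 1e-05, the smallest that 100000 resamples give, adjusted 2.0e-05 over 24 relations). Within lanes 5 to 7 r was 0.51 to 0.89, and without the 2 samples farthest from the median it was 0.74. Over the 67 P90 samples r was 0.93 (rho = 0.90, permutation p = 1e-05, adjusted 2.0e-05), with 0.80 to 0.93 within lanes and 0.91 without the 2 farthest samples. Since each strand had its own probe, these values come from separate captures of the same DNA. Samples that share a mouse are not independent, so the p-values may be too small.

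At exon 1 CpG 2 the plus strand was lower than the minus strand by a mean of 4.4 points over 71 P60 samples (SD 5.0), and it was the higher one in 20 of them. CpG 3 was higher on the plus strand by 1.6 points (SD 2.3).

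The next question is how the infants differed. In P6 enterocytes 6 samples of segments 1 and 3 and 4 of segment 7 were available. Between the P6 segments 0 of 16 members were called and 0.0% of 637 CpGs were, and limma called 0 members. Before correction 4 members, and 62 of the 637 CpGs, had p under 0.05. The lowest p was at exon 1 CpG 1, where segment 3 had 75.9% and segment 7 had 86.3% with no overlap (exact permutation p = 0.057, the smallest that 3 against 4 allows).

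Against P60, no member passed the Bonferroni threshold in segment 1 (0 of 16, background 0.626%), segment 3 (0 of 16, 0.781%) or segment 7 (0 of 17, 0.933%). Limma also called 0 members in each, while 12, 8 and 10 members had p under 0.05 before correction. With Benjamini-Hochberg correction at 0.05 over the same cytosines, 7, 4 and 6 members were called. The share of all locus CpGs past that cut is not given, so these counts do not set the region apart from the locus. Among these called members the level was lower in P6 at all but exon 1 CpG 5 in segment 1, where it was 93.9% in P6 and 90.0% in P60.

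P6 levels on the plus strand of exon 1 CpG 2 were 73.3%, 59.7% and 52.8% in segment 1, 59.2%, 47.7% and 48.8% in segment 3, and 68.4%, 48.7%, 50.9% and 65.9% in segment 7. The P6 means were 61.9% ± 10.4, 51.9% ± 6.3 and 58.5% ± 10.1. The 4 values of segment 7 lay below all 8 of P60 segment 7, which ran from 81.4% to 90.8% (adjusted p = 0.18 by the fit, exact permutation p = 0.0040, the smallest that 4 against 8 allows).

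The difference in segment 7 at exon 1 CpG 3 came nearest to the threshold, from 81.2% in P6 to 94.2% in P60 on the plus strand (adjusted p = 0.042). It was called when P6 segment 7 replicate 1 was left out. In segment 3 the lowest p was at exon 1 CpG 3 on the minus strand, 74.8% in P6 and 88.0% in P60 (adjusted p = 0.11). In segment 1 it was at exon 1 CpG 2 on the minus strand, 67.3% ± 1.8 and 82.3% ± 2.4 (n = 3 and 8, adjusted p = 0.054, exact permutation p = 0.012, the smallest that 3 against 8 allows). No member was called for an age difference that varied between segments (0 of 16, background 0.0%, limma not run). Before correction 5 members, and 107 of 637 CpGs, had p under 0.05 for it. All P6 libraries shared 1 lane that held no P60 library, so age and lane cannot be told apart.

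On their plus strands, the intron 1 site and the promoter CpG moved together in the infants. At 5070 bp on the plus strand the P6 levels were 23.9%, 12.3% and 7.6% in segment 1, 40.2%, 12.6% and 5.9% in segment 3, and 28%, 29.8%, 13.7% and 9.9% in segment 7. The promoter CpG of the same samples, in the same order, had 25.3%, 12.8% and 6.6% in segment 1, 42.8%, 11.7% and 3.3% in segment 3, and 30.0%, 32.4%, 15% and 9.6% in segment 7. Each pair of values lay within 3 points.

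On the plus strands, the deviations of the intron 1 site and the promoter CpG from their segment means had r = 0.999 and rho = 1 over 10 samples (permutation p = 1e-05, adjusted 2.0e-05, r = 0.999 without the 2 farthest samples, all on lane 8). This pair was chosen after its values were seen. Several of the 10 samples may share an infant, and the p-value would then be too small. In adults the relation was weaker, r = 0.45 over 71 P60 samples (0.21 to 0.61 within lanes) and 0.54 over 67 P90 samples (0.37 to 0.71). The adult levels of the 2 sites also lay apart, at 16.5% and 39.3% in P60.

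Compared with P60, the intron 1 site was lower in all infants of segment 1 (means 14.6% ± 8.4 and 39.9% ± 3.5, n = 3 and 8, adjusted p = 0.81) and of segment 7 (20.3% ± 10.0 and 42.9% ± 3.4, n = 4 and 8, adjusted p = 1), with no overlap in either. In segment 3 the infant at 40.2% lay above the 8 adults. The promoter CpG did not separate the ages, with means of 14.9%, 19.3% and 21.8% in P6 and 16.4%, 13.9% and 15.2% in P60 in segments 1, 3 and 7 (exact permutation p from 0.16 to 0.78).

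**Figure D3:**
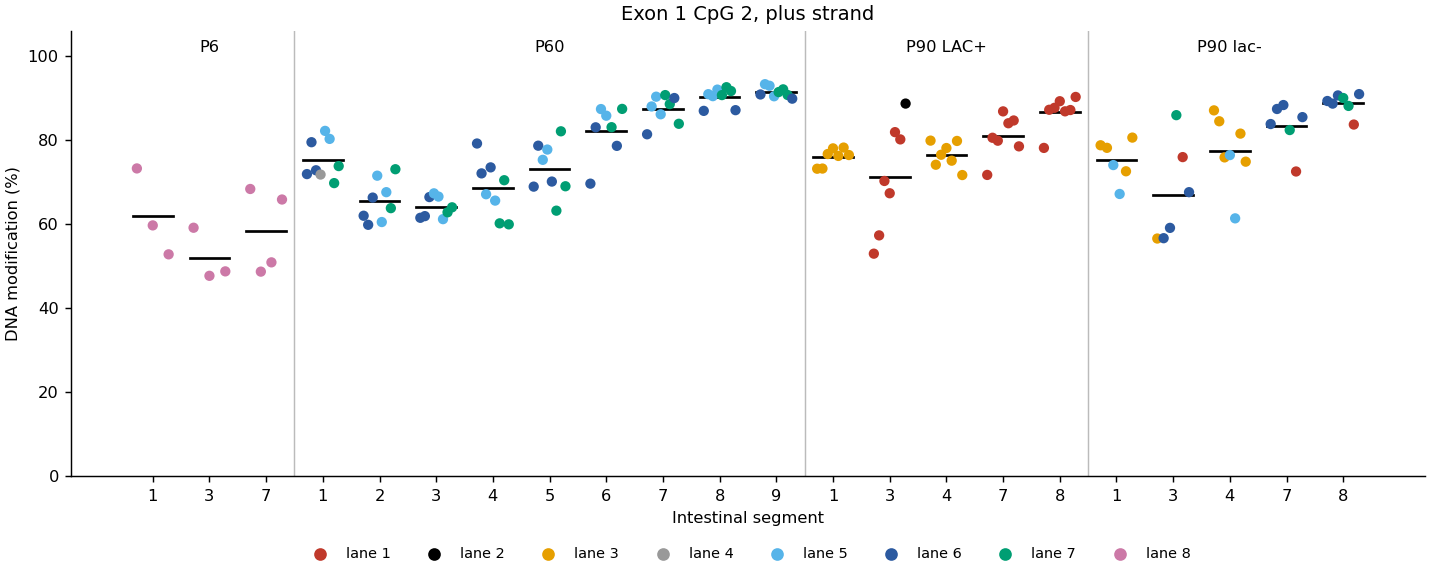
DNA modification (%) of the plus strand of exon 1 CpG 2 in every sample, by segment within P6, P60, P90 LAC+ and P90 lac-, with points coloured by sequencing lane and bars at the group means. The P6 samples lie between 47.7% and 73.3%, the P60 means run from 64% in segment 3 to 91.5% in segment 9, and the P90 groups of both diets are lowest in segment 3 and highest in segment 8.

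The P90 mice hold the same segments in other animals and other libraries. No member was called across their segments in either diet. In LAC+ samples this was 0 of 17 against 4.35% of 667 CpGs (limma called 1 member), and in lac- samples 0 of 17 against 4.06% of 640 CpGs (limma called 0). Before correction 8 members, and 329 of the 667 CpGs, had p under 0.05 in LAC+. In lac- samples 12 members, and 369 of the 640 CpGs, did. The lowest adjusted p was 0.0101 in LAC+, at exon 1 CpG 1, just over the threshold, and 0.78 in lac-, at exon 1 CpG 2 on the minus strand. Without LAC+ segment 3 replicate 7, 2 members were called in LAC+ samples.

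The members called in P60 had their direction from segment 3 to the ileum in the P90 mice too. The minus strand of exon 1 CpG 2 went from 72.8% ± 8.4 in segment 3 to 89.2% ± 1.9 in segment 8 of lac- mice (n = 6 and 7, exact permutation p = 0.0012). In LAC+ mice it went from 76.9% ± 8.0 to 89.0% ± 1.5 (n = 7 each, exact permutation p = 0.0012), and from 75.0% without replicate 7. The plus strand went from 67% ± 12.0 to 88.8% ± 2.5 in lac- (p = 0.0023) and from 71.3% ± 13.2 to 86.7% ± 4.0 in LAC+ (p = 0.012 by the same exact permutation test). Without replicate 7 the LAC+ segment 3 mean was 68.4% ± 11.7 (exact permutation p = 0.0035).

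The spread in segment 3 was wide in both diets, from 56.6% to 86% in lac- and from 53% to 88.8% in LAC+ (to 81.9% without replicate 7), against 61.2% to 67.4% in P60 segment 3. At 5070 bp (plus strand) the means of segments 3 and 8 were 38.5% and 52.7% in lac- (exact permutation p = 0.0012) and 40.9% and 49.3% in LAC+ (exact permutation p = 0.0087). The LAC+ segment 3 mean was 39.6% without replicate 7 (exact permutation p = 0.0058).

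Lactose was tested within each segment at the 12 members that were at most 90% modified on average in P90. None was called in segments 1, 3, 4, 7 or 8, with a background of 0.0% in each. Before correction 1, 1, 0, 2 and 4 members had p under 0.05, and limma called 0 members. Over all tested CpGs, 19 of 365, 21 of 353, 23 of 364, 61 of 351 and 70 of 360 had p under 0.05. The diets differed at exon 1 CpG 2 by 0.8, 4.3, -0.9, -2.5 and -2.1 points (LAC+ minus lac-, plus strand, segments 1, 3, 4, 7 and 8), each within the spread of the samples (exact permutation p from 0.28 to 0.81). The segment 3 difference was 1.4 points without LAC+ replicate 7 (exact permutation p = 0.84). No member was called for a diet difference that varied between segments (0 of 12, background 0.0%, limma not run). Before correction 1 member, and 22 of 351 CpGs, had p under 0.05 for it.

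The promoter CpG had the widest diet differences. Its plus strand averaged 39.5%, 34%, 46.2%, 29.4% and 36.6% in LAC+ and 26.9%, 12.8%, 31.7%, 16% and 21.3% in lac- samples of segments 1, 3, 4, 7 and 8. It was higher in LAC+ by 12.6, 21.2, 14.4, 13.5 and 15.3 points (exact permutation p = 0.019, 0.079, 0.086, 0.072 and 0.0087). In every segment the diets overlapped, and the adjusted p of the fit was 1 in each. Without LAC+ segment 3 replicate 7, at 83.5% the highest of all 148 samples, the LAC+ mean was 25.8% and the segment 3 difference 12.9 points (exact permutation p = 0.15). The minus strand of the same CpG was higher in LAC+ by 15.3, 17.2, 14.4, 12.4 and 9.1 points (exact permutation p = 0.047, 0.25, 0.18, 0.13 and 0.16), and by 7.8 points in segment 3 without replicate 7 (exact permutation p = 0.47). The low p of segment 8 was thus seen on the plus strand and not on the minus strand.

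These levels moved with the kind of file. In LAC+ mice, merged files had 40.3% ± 8.3 (n = 29, 25.7% to 61.5%), and the other 6 had a median of 9.9% (4.6% to 83.5%, where the 83.5% is replicate 7 of segment 3). In lac- mice, merged files had 35.0% ± 6.9 (n = 12, 25% to 43.4%) and the other 20 had 14.3% ± 6.2 (5.5% to 27.1%). The P60 files, none of which carried the mark, had 16.5% ± 6.3 (n = 71). Its part in the diet differences was not tested beyond the comparison that follows.

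Diets could be tested among files of one kind on one lane in segments 1 and 4, where lane 3 held merged files of both. There the LAC+ samples were higher by 6.0 points in segment 1 (n = 7 and 4, exact permutation p = 0.097) and by 5.3 points in segment 4 (n = 7 and 5, p = 0.37), against 12.6 and 14.4 points over all samples. In segments 3, 7 and 8 the lanes that hold both diets held 1 lac- sample each, and diet, lane and kind of file cannot be told apart.

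**Figure D4:**
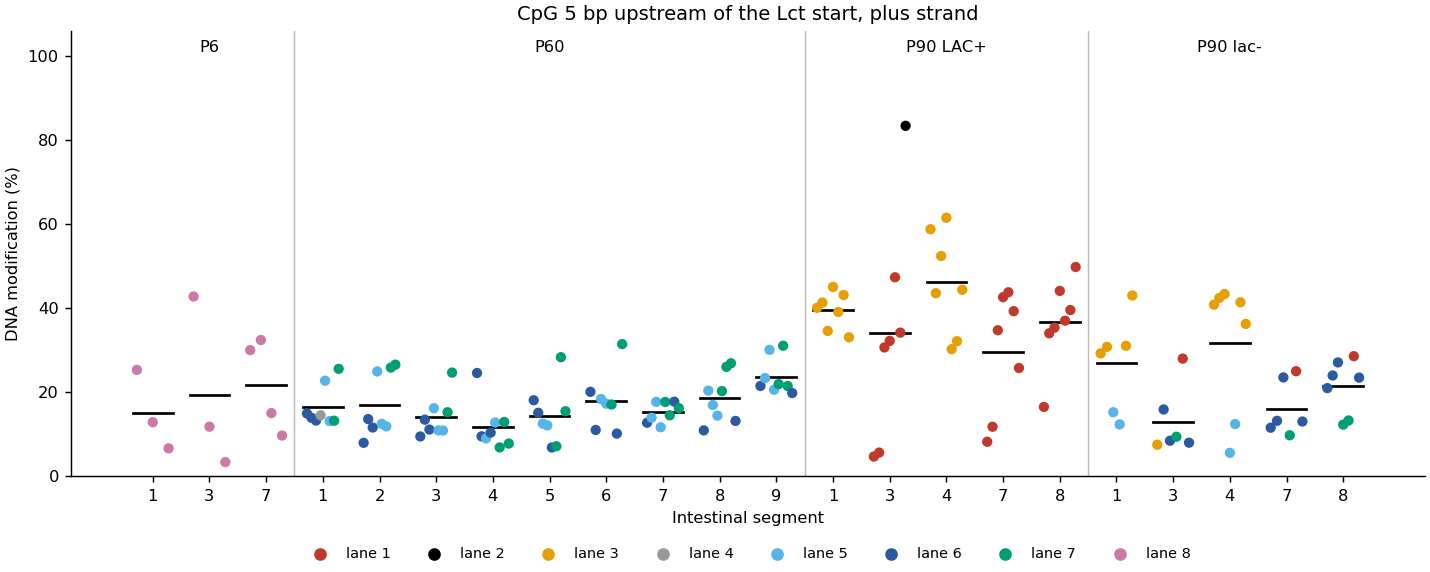
DNA modification (%) of the promoter CpG, 5 bp upstream of the *Lct* start (plus strand), in every sample, by segment within P6, P60, P90 LAC+ and P90 lac-, coloured by sequencing lane, with bars at the group means. P60 samples lie between 6.8% and 31.4%, the P90 samples of lanes 1 and 3 mostly lie above those, and 1 LAC+ segment 3 sample on lane 2 stands at 83.5%.

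Exon 1 CpG 6 went the other way. It averaged 72.7% ± 2.8 in 71 P60 samples, 70.7% ± 4.7 in 32 lac- and 66.1% ± 5.0 in 35 LAC+ samples, and merged files had 65.4% ± 2.9 in LAC+ and 66.2% ± 3.3 in lac- mice against 73.3% ± 3.1 in the other lac- files. It had the lowest p of the members for diet in segment 8 (72.1% in lac- and 66.4% in LAC+, adjusted p = 0.55, exact permutation p = 0.0070).

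In segment 7 the lowest p for diet was at the exon 2 site at 9254 bp, with 94.3% ± 2.8 in lac- and 88.2% ± 2.7 in LAC+ (n = 6 and 7, adjusted p = 0.50, exact permutation p = 0.0035). The lac- samples ran from 91.3% to 98.4% and the LAC+ samples from 84% to 92.4%, so the groups overlapped. In segment 3 it was at exon 1 CpG 5, with 89.8% ± 2.7 in lac- and 85.2% ± 4.5 in LAC+ (n = 6 and 7, adjusted p = 1, exact permutation p = 0.047), and 86.4% in LAC+ without replicate 7 (exact permutation p = 0.087). In segments 1 and 4 it was at the promoter CpG described above.

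Over the 67 P90 samples the deviations of exon 1 CpG 6 (minus strand) from the group means ran against those of the promoter CpG (plus strand). The values were r = -0.88 and rho = -0.81 (permutation p = 1e-05, adjusted 2.0e-05). Within lanes r was -0.93 to -0.36, and -0.83 without the 2 farthest samples. Several groups mixed merged and other files, between which both sites differed, so the relation runs across the kinds of file. On lane 6, which held no merged P90 file, r was -0.36 over 11 samples. The part of the kind of file was not tested. In P60 the relation was weaker (r = -0.37, rho = -0.28, permutation p = 0.0013, adjusted 0.0019, -0.68 to -0.18 within lanes, -0.30 without the 2 farthest).

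The intron 1 site at 5070 bp and exon 1 CpG 2, read by different probes, deviated in the same direction. On the plus strands r was 0.83 over 71 P60 samples (rho = 0.83) and 0.88 over 67 P90 samples (rho = 0.82), each with permutation p = 1e-05 (adjusted 2.0e-05). Within lanes r was 0.76 to 0.92 in P60 and 0.64 to 0.93 in P90, and without the 2 farthest samples 0.81 and 0.85. In the 10 P6 samples r was 0.43 (permutation p = 0.21). A sample with more modification in intron 1 thus had more at exon 1 CpG 2 in adults of the same segment. These pairs of sites were chosen after their values were seen.

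**Figure D5:**
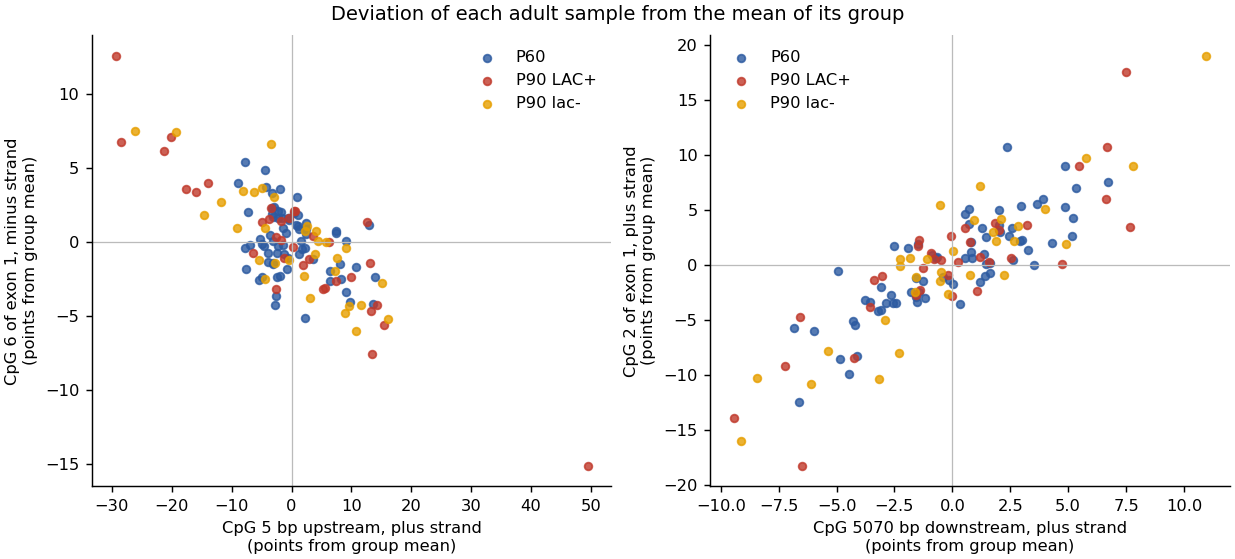
Deviation of each adult sample, in percentage points, from the mean of its segment and diet group, with P60 in blue, P90 LAC+ in red and P90 lac- in orange. On the left the minus strand of exon 1 CpG 6 falls as the promoter CpG rises (r = -0.88 in P90, -0.37 in P60), with LAC+ segment 3 replicate 7 at the far right, and on the right the plus strands of the intron 1 site at 5070 bp and exon 1 CpG 2 rise together (r = 0.88 and 0.83).

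The P90 lac- mice were also set against the P60 mice, which differ in age and in milk and in part in lane and kind of file. In segments 1 and 4, 4 and 5 of the lac- files were merged files on lane 3, which held no P60 file. Age and milk cannot be told apart here, and the part of the kind of file was not tested. No member was called in segments 1, 3, 4, 7 or 8 (backgrounds 0.0%, 0.155%, 0.15%, 0.0% and 0.0%), with 7, 1, 10, 2 and 5 members at p under 0.05 before correction and 0 called by limma. The lowest p in segments 1, 3, 4 and 8 was at 5070 bp on the plus strand, which was higher in P90 by 4.8, 5.5, 10.4 and 5.9 points. In segment 4 it averaged 34% ± 3.3 in P60 and 44.4% ± 4.7 in lac- (n = 8 and 7, adjusted p = 0.79). In segment 7 the lowest p was at the promoter CpG on the minus strand (12.0% and 15.8%, exact permutation p = 0.22). For a difference in the segment pattern between these adults, no member was called (0 of 17, background 0.0%, limma not run). Before correction 9 members, and 149 of 640 CpGs, had p under 0.05 for it.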

How the data were processed

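DNA of villus enterocytes was bisulfite-converted, captured with padlock probes and sequenced. The authors trimmed reads (Trimmomatic 0.32), mapped them with Bismark to GRCm38/mm10, per the labels, and deposited for each cytosine of each of 148 samples the counts of modified and unmodified reads, not normalized. These counts were used as deposited. Percent modification is modified over all reads at cytosines with more than 30 reads.

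Groups were compared per cytosine with a quasi-binomial logistic model with 1 dispersion each and an F test. A cytosine entered where 3 or more samples per group had over 30 reads. Bonferroni correction ran over all tested CpGs and CpHs of the locus, or for diet over CpGs at most 90% modified, with a threshold of 0.01. Single CpGs were compared by two-sided exact permutation tests over samples, and correlations by 100000 permutations. Both fits were tested on simulated data. File names gave the lane and whether a file was merged.

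CpGs were named by a rule: in each feature the lowest p over the P60 segments and its other strand, every called member, members within 500 bp upstream of the start, the lowest and highest P60 levels, and the lowest p where none was called. Members, lists and rule were chosen with earlier results of these data known. The settings varied were read depth (over 10 or 100), false discovery rate (Benjamini-Hochberg, 0.05), limma fitted to log2 odds (0.5 added to each count), lane, replicate blocks, P60 segment 1 replicates 1 and 4 summed, each P6 sample left out, no removal of CpGs above 90%, lanes with both diets only, and pooled reads. Leaving out LAC+ segment 3 replicate 7 was added after the values were seen. P60 segment 1 replicates 1 and 4, the closest of 28 pairs, had a chi-square of 2.9 per degree of freedom, above counting error, and stayed separate. Tools were Python 3.11.15, NumPy 2.4.6, SciPy 1.17.1, pandas 2.3.3, Matplotlib 3.10.9, R 4.3.3 and limma 3.58.1.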

Additional observations from a re-analysis of the deposited data

Results flagged for a closer look

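Single samples lay far from the rest of their group at 23 of 339 combinations of a member and a group of 4 to 10 samples, or 6.78%, where chance alone gives about 1 in 20. At the promoter CpG, P60 segment 3 replicate 8 had 24.6% (next 16.1%) and P60 segment 4 replicate 1 had 24.5% (next 12.9%) on the plus strand, and lac- segment 8 replicate 5 had 6.8% (next 25.6%) on the minus strand. At exon 1 CpG 1, P6 segment 7 replicate 2 had 82.4% (next 87.2%).

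At exon 1 CpG 2 on the plus strand, LAC+ segment 8 replicate 1 had 78.2% and lac- segment 8 replicate 6 had 83.8%. On the minus strand P60 segment 6 replicate 1 had 76.7% (next 85.4%), lac- segment 1 replicate 4 had 76.2% and lac- segment 4 replicate 5 had 70.6%, each the lowest of its group. At exon 1 CpG 3 LAC+ segment 1 replicate 1 had 87.3%, and at exon 1 CpG 4 P60 segment 6 replicate 1 had 83.6%. At exon 1 CpG 5 P60 segment 4 replicate 5 had 87.6%, and at exon 1 CpG 6 P60 segment 4 replicate 3 had 69%.

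At 703 bp the lowest samples were P60 segment 5 replicate 1 (90.2%, minus strand), LAC+ segment 8 replicate 6 (84.3%) and lac- segment 3 replicate 2 (84.1%, 63 reads). At 5070 bp on the minus strand, P60 replicates 7 of segments 7 and 9 were high at 64.2% (81 reads) and 65.4%, and LAC+ segment 8 replicate 5 (35.6%) and lac- segment 4 replicate 5 (29.9%) were low. In exon 2, P60 segment 3 replicate 5 had 86.9% and LAC+ segment 3 replicate 7 had 75.3% at 9247 bp, and lac- segment 3 replicate 5 had 85.3% at 9254 bp. Their causes were not tested.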

How the results depend on the processing

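Of 172 counts of called members recomputed under another setting, 152 stayed within 1.5 times the value given above. Most of these counts were 0 to begin with. Members were called only across the 9 P60 segments (7), between segments 3 and 9 (5) and between segments 1 and 3 (1). All 373 mean levels moved by less than 1 SD with pooled reads. No direction of a called member reversed. Between P60 segments 3 and 9, limma, the replicate block by source-name numbers and the replicate block by runs of title numbers each called 3 members in place of 5. Between P60 segments 1 and 3, limma, lane and both replicate blocks called 0 in place of 1. Benjamini-Hochberg correction called 6 members across lac- segments, 5 across LAC+ segments, 7, 4 and 6 for P6 against P60 in segments 1, 3 and 7, and 6 for P60 against lac- in segment 4, in place of 0. The share of all locus CpGs called under that correction is not given, so these counts do not set the region apart. Across LAC+ segments, 1 member was called with more than 100 reads, with limma, with lane (which left 3 of 4 degrees of freedom) and with the replicate block by source-name or file-name numbers, and 2 without segment 3 replicate 7. Leaving out P6 samples one at a time gave 0 to 1 members for P6 against P60 in segment 7. Replicate numbers were not taken to pair the samples in the main fits, because not every same-numbered pair had r over 0.1. This check cannot exclude that samples share a mouse. Deviations of same-numbered P60 samples had a mean r of 0.037, and 0.081 by runs of titles, with 36.4% and 44.5% of pairs over 0.1. The LAC+ mean was 0.038 (48.6% over 0.1). The lac- mean was -0.011 by source-name numbers (34.4%) and 0.18 by file-name numbers (53.4%, against -0.030 for different numbers). In P6 it was 0.40 with 7 of 9 pairs over 0.1, against -0.14 for different numbers, and a minimum of -0.073, so not every pair passed. The cause of these changes was not tested. Depth limits the plus strand at 703 bp and the minus strand at 5070 bp, and 3 or 4 infants per segment limit the age comparisons.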
